A study of Mus musculus with 25 samples.

Results

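The Toll-like receptors (TLRs) are sensors of the innate immune system that recognise molecules of microbes and of damaged cells. The 10 receptor genes described here, Tlr1 to Tlr9 and Tlr13, were taken by their symbols from the 54723 genes with a symbol that were counted in white adipose tissue. Each receptor joins an outer, leucine-rich domain that binds the ligand to an inner TIR domain that recruits adaptors such as MyD88 and TRIF, from which NF-kappaB and interferon regulatory factors are activated. Tlr1, Tlr2, Tlr4, Tlr5 and Tlr6 act mainly at the cell surface, on lipopeptides, lipopolysaccharide and flagellin. Tlr3, Tlr7, Tlr8, Tlr9 and Tlr13 act in endosomes, on nucleic acids. In adipose tissue, macrophages are known as a main source of many of them, and Tlr3 and Tlr4 are also known from adipocytes and stromal cells.

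RNA was sequenced from the epididymal (eWAT) and inguinal (iWAT) white adipose tissue of male C57BL/6N mice (named C57BL/6NJ in the protocol), as 25 libraries in 6 groups. In eWAT these were 4 wild type (WT) mice on a normal chow diet (ND), 5 WT mice on a high-fat diet (HFD) and 5 Acod1-/- mice on HFD. In iWAT they were 3, 5 and 3 mice. HFD, with 60% of calories from fat, was given from 5 weeks of age for 16 weeks, and the labels give 17 and 18 weeks for the iWAT Acod1-/- libraries 2 and 3, which may be an entry error. For ND the labels give 16 weeks and no starting age. The methods of the study start either diet at 5 weeks of age. Acod1-/- mice lack in every cell the enzyme that makes itaconate, carry the allele em1(IMPC)J on C57BL/6N and were compared with littermates. There was no Acod1-/- group on ND, so an effect of the knockout is known here only under HFD. Acod1 itself had 0 to 9 counts in every library of both genotypes, so its counts do not check the labels.

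Libraries held 31405063 to 52335623 counted reads (median 42088309). Library numbers in the headers of the count files fall into 2 separate ranges, called series 1 and 2 here and treated as a possible batch, which the sources used here do not describe. All ND libraries and a single library of each HFD group (WT library 5, eWAT Acod1-/- library 5, iWAT Acod1-/- library 3) were in series 2, and all others in series 1. Adipocyte markers were high in every library (summed CPM of 7 genes at least 19220), and epididymal genes were detected in some eWAT libraries (up to 7634 summed CPM of 4 genes). Markers of B cells, T cells and lymph node stood apart in the 3 iWAT libraries on ND, which is given beside the results they touch. Bulk RNA cannot tell fewer cells of a type from less RNA per cell.

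The genes lie on 7 chromosomes of GRCm38 (GENCODE vM21). Tlr1 (ENSMUSG00000044827, chromosome 5, 64924679 to 64933563, minus strand) and Tlr6 (ENSMUSG00000051498, chromosome 5, 64952031 to 64960097, minus strand) are neighbours 18467 bases apart. They encode the partners with which Tlr2 (ENSMUSG00000027995, chromosome 3, 83836272 to 83841767, minus strand) binds lipopeptides. Of the 50-base windows of their exons, 13.6% of those of Tlr1 occur in Tlr6 and 12.3% of those of Tlr6 in Tlr1, so some of their reads could be split between them in counting, and no other pair of members shared a window. Tlr8 (ENSMUSG00000040522, chromosome X, 167242696 to 167264329, minus strand) and Tlr7 (ENSMUSG00000044583, chromosome X, 167304929 to 167330558, minus strand), both receptors of single-stranded RNA, lie 40599 bases apart. Tlr13 (ENSMUSG00000033777, chromosome X, 106143204 to 106160493, plus strand), a receptor of bacterial ribosomal RNA that mice have and humans lack, is on the same chromosome. Tlr3 (ENSMUSG00000031639, chromosome 8, 45395665 to 45411080, minus strand) binds double-stranded RNA and overlaps in an exon the antisense gene Gm45542, which averaged 0.136 CPM. The others are Tlr4 (ENSMUSG00000039005, chromosome 4, 66827584 to 66930284, plus strand), Tlr5 (ENSMUSG00000079164, chromosome 1, 182954788 to 182976044, plus strand) and Tlr9 (ENSMUSG00000045322, chromosome 9, 106222598 to 106226883, plus strand). For Tlr1, Tlr2 and Tlr6 the whole coding sequence lies in 1 exon.

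Promoters are shown for Tlr1, Tlr2 and Tlr13, which changed most clearly with diet or genotype, for Tlr9, which was high in 1 group, and for Tlr3, which moved least among the receptors higher on HFD in both depots. RefSeq (GRCm38.p6) gave windows before the start for 8 of the 10 members, and Tlr4 and Tlr7 had no entry. The 250 bases before each start are printed on the strand of the gene, and capitals mark matches to 4 motifs searched on both strands: GAGGAAGT (of the PU.1 and ETS type), GAAANNGAA (of the interferon response type), TGANTCA (of the AP-1 type) and the NF-kappaB consensus.
Tlr1, chr5:64933559-64933808, minus strand: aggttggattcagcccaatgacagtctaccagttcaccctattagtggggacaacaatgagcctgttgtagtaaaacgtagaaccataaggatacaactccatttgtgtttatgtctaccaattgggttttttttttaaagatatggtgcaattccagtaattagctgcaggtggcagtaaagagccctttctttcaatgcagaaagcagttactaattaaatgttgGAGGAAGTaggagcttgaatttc
Tlr2, chr3:83841609-83841858, minus strand: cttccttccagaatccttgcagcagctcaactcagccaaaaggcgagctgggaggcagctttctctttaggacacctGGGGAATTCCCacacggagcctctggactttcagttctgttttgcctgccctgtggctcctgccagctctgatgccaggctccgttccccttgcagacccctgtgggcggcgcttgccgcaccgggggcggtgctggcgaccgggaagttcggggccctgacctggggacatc
Tlr13, chrX:106143025-106143274, plus strand: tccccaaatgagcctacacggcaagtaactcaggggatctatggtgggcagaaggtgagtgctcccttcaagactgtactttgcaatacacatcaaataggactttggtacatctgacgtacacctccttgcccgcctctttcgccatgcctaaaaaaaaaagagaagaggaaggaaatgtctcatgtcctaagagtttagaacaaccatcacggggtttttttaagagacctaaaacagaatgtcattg
Tlr9, chr9:106222348-106222597, plus strand: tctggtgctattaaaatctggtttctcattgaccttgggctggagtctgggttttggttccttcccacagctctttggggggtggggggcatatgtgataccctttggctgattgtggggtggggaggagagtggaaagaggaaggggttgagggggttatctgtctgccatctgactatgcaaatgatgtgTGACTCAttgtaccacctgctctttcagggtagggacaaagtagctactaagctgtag
Tlr3, chr8:45410381-45410630, minus strand: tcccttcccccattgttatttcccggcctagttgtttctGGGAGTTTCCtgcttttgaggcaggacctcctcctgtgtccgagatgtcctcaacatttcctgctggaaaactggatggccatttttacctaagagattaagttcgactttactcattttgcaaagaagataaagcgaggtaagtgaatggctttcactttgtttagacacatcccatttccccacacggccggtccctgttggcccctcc
Tlr1 held GAGGAAGT from position -23 in the window printed, letters that 2.44% of all 32851 RefSeq windows of this length hold. The other RefSeq window of Tlr1, chr5:64932700-64932949, held no match to any motif and is not printed. Tlr2 held overlapping NF-kappaB matches from positions -173 and -172 and Tlr3 held a match from -211, against 7.25% of all windows. Tlr9 held TGANTCA at -58, which reads alike on both strands and occurs in 6.75% of windows. GAAANNGAA, in 7.13% of windows, was found in a window each of Tlr6 (from -115 and -109) and Tlr8 (from -67). No match was found in the windows of Tlr13 and Tlr5. These letters are a description and not binding sites.

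Levels of different receptors were compared as CPM (counts scaled to a common library total, here with TMM, the trimmed mean of M values) per kilobase of cDNA. In eWAT on ND, Tlr4 and Tlr3 led, with 3.11 ± 0.456 and 2.82 CPM per kb (n = 4), and did not differ beyond their spread. Tlr7 followed at 1.94, then Tlr2, Tlr5 and Tlr13 between 1.09 and 1.32, Tlr8 at 0.774, Tlr1 at 0.760 and Tlr6 at 0.576, and Tlr9 was last at 0.280. On HFD the order in eWAT changed. Tlr13 led at 12.0 CPM per kb, with Tlr7 at 6.92 and Tlr1 at 6.81, and the ranges of these 3 overlapped (n = 5). In iWAT on ND, Tlr1 led at 10.3 ± 1.97 CPM per kb (n = 3), with its lowest library at 9.08, and Tlr3 and Tlr4 came next at 3.08 and 2.70. Tlr3 and Tlr4 led again in iWAT on HFD, at 4.35 and 3.55 CPM per kb in WT mice and 4.22 and 3.26 in Acod1-/- mice.

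The first comparison asked how HFD changes the receptors in eWAT of WT mice. RNA of 8 of the 9 receptors tested was higher on HFD than on ND at an adjusted p under 0.1 in edgeR's quasi-likelihood test, adjusted over all genes, where 24.8% of all 14936 genes tested were higher. The median log2 fold change was 1.74 over the 5 surface and 2.15 over the 4 tested endosomal receptors, against -0.04 over all genes. Tlr9 was below the filter of a mean of 1 CPM in eWAT.

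Tlr13 changed most. On ND it was at 7.68, 4.16, 3.79 and 3.14 CPM, and on HFD at 116, 54.5, 22.5, 48.3 and 16.8 CPM. All 5 HFD libraries lay above all 4 ND libraries, and the log2 fold change was 3.46 (SE 0.89, adjusted p = 0.0080). Tlr1, the partner of Tlr2 for triacylated lipopeptides, was at 4.29, 2.06, 1.69 and 2.13 CPM on ND and at 48.1, 24.6, 9.71, 22.2 and 9.30 CPM on HFD. The groups were again apart, with a log2 fold change of 3.16 (SE 0.59, adjusted p = 0.0014). Tlr2 was at 3.81, 2.70, 4.45 and 4.94 CPM on ND and 17.8, 17.5, 10.6, 17.3 and 5.83 CPM on HFD. It was 3.47 times as high by the means (log2 fold change 1.80, SE 0.40, adjusted p = 0.0035), without overlap.

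Tlr7, which senses uridine-rich RNA, rose from 7.92 ± 1.21 CPM (SD, n = 4) to 28.2 ± 18.5 CPM (n = 5), and its groups did not overlap (log2 fold change 1.84, SE 0.57, adjusted p = 0.020). Tlr6, the partner of Tlr2 for diacylated lipopeptides, rose from 2.15 ± 0.886 to 7.18 ± 3.49 CPM, also without overlap (log2 fold change 1.74, SE 0.54, adjusted p = 0.020). Tlr8 was at 1.82 to 4.49 CPM on ND and at 30.3, 21.02, 3.92, 18.5 and 3.53 CPM on HFD, so that 2 HFD libraries lay within the ND range. Its log2 fold change was 2.47 (SE 0.96, adjusted p = 0.051), and leaving out any of 4 libraries (WT HFD 1 or ND 2, 3 or 4) took the adjusted p to between 0.10 and 0.11.

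The receptors that led on ND changed little. Tlr3 went from 14.7 ± 2.19 to 19.96 ± 1.65 CPM without overlap (log2 fold change 0.45, SE 0.13, adjusted p = 0.015). Tlr4, the receptor of lipopolysaccharide, went from 17.3 ± 2.53 to 25.8 ± 6.95 CPM with overlapping groups (log2 fold change 0.58, SE 0.22, adjusted p = 0.049), and leaving out ND library 2 or WT HFD library 1 ended the call (adjusted p = 0.125 and 0.11). Tlr5, the receptor of flagellin, was at 6.13 ± 1.25 and 6.44 ± 1.27 CPM (log2 fold change 0.07, SE 0.28, adjusted p = 0.85).

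Diet and library series coincide in large part, since only WT HFD library 5 shared series 2 with the ND libraries. When a term for the series entered the fit, 7 members were called higher and Tlr4 was not (adjusted p = 0.12). The share of all genes called with that term is not given here. Within series 2, that HFD library was above all 4 ND libraries for 7 of the 9 tested members (all but Tlr4 and Tlr8, which were inside their range), as was the case for 32.9% of all genes tested, and it was below all of them for Tlr9. It was also the lowest HFD library for Tlr1, Tlr2, Tlr4, Tlr6, Tlr7, Tlr8 and Tlr13, as the plot of CPM by library shows.

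**Figure D1:**
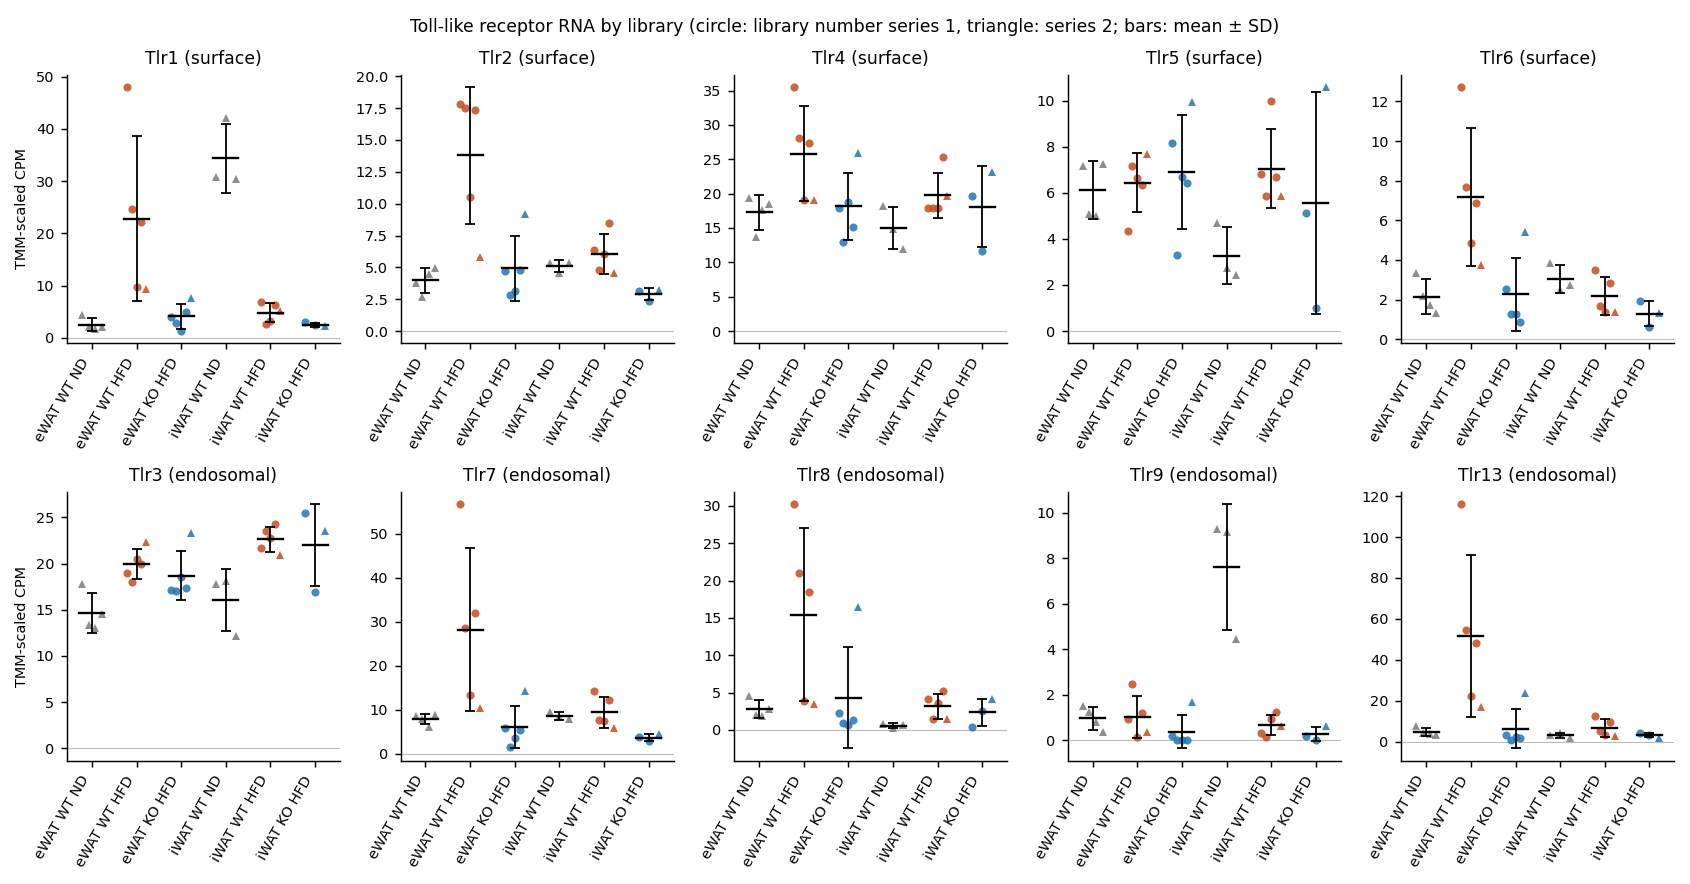
TMM-scaled CPM of each receptor (linear axis) in every library by group, with circles for library series 1, triangles for series 2 and bars for the mean ± SD. Tlr1, Tlr2, Tlr6, Tlr7 and Tlr13 were high in eWAT of HFD-fed WT mice, while Tlr1 and Tlr9 were high in iWAT of ND-fed mice.

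The second comparison asked what the loss of Acod1 changes under HFD in eWAT. RNA of 5 of the 9 receptors tested was lower in Acod1-/- than in WT mice, where 10.8% of all genes tested were lower, and none was higher. These were Tlr1, Tlr2 and Tlr6 at the surface and Tlr7 and Tlr13 in endosomes. The study names these 5 in a list chosen on these eWAT samples, so the count is not independent evidence of their direction. The median log2 fold change was -1.48 over the surface and -2.02 over the tested endosomal receptors, against 0.04 over all genes.

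Tlr13 was at 3.22, 1.11, 2.49, 1.96 and 23.8 CPM in Acod1-/- mice, against 16.8 to 116 CPM in WT mice on HFD. In 4 of the 5 Acod1-/- libraries it was below all WT libraries, and library 5 lay inside their range. The log2 fold change was -2.98 (SE 0.80, adjusted p = 0.030). Tlr1 was at 3.94, 2.88, 1.28, 4.98 and 7.70 CPM, below the lowest WT library at 9.30 CPM (log2 fold change -2.45, SE 0.52, adjusted p = 0.014). It was the only member whose groups did not overlap, and 4.34% of all genes tested were lower without overlap.

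Tlr7 was at 5.96, 1.498, 3.52, 5.33 and 14.2 CPM, against 10.4 to 56.8 CPM in WT mice (log2 fold change -2.20, SE 0.54, adjusted p = 0.021). Tlr2 was at 4.72, 2.80, 3.14, 4.80 and 9.20 CPM, against 5.83 to 17.8 CPM (log2 fold change -1.48, SE 0.36, adjusted p = 0.022). Tlr6 was at 2.52, 1.27, 1.26, 0.884 and 5.39 CPM, against 3.73 to 12.7 CPM (log2 fold change -1.66, SE 0.50, adjusted p = 0.046), and the call was lost without WT HFD library 1 (adjusted p = 0.12) or Acod1-/- library 3 (adjusted p = 0.11). In each of them the highest Acod1-/- value was that of library 5.

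Tlr8 was at 0.601 to 2.30 CPM in Acod1-/- libraries 1 to 4 and at 16.5 CPM in library 5, with a log2 fold change of -1.83 (SE 0.86, adjusted p = 0.18). Tlr4 was at 18.1 ± 4.92 CPM against 25.8 ± 6.95 CPM in WT mice (log2 fold change -0.51, SE 0.21, adjusted p = 0.12). Tlr3 at 18.7 ± 2.67 CPM (log2 fold change -0.10, SE 0.12, adjusted p = 0.64) and Tlr5 at 6.90 ± 2.45 CPM (log2 fold change 0.10, SE 0.26, adjusted p = 0.84) did not pass either. DESeq2's Wald test on all libraries called Tlr8 and Tlr4 lower as well (adjusted p = 0.073 and 0.086), for 7 members in all. The share of all genes that it called is not given here. Tlr9 had 0 counts in Acod1-/- libraries 2, 3 and 4, 8 in library 1 and 77 in library 5, against 6 to 119 in WT mice on HFD.

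The series bears on this comparison. Among the libraries of series 1, 4 of each genotype, 7 receptors were lower in Acod1-/- mice, with Tlr13 at -4.76 (adjusted p = 0.0014), Tlr8 at -3.81 (adjusted p = 0.0040) and Tlr4 at -0.77 (adjusted p = 0.032) on the log2 scale, and without Acod1-/- library 5 the count was also 7. With all libraries and a term for the series it was 6, Tlr8 being added (-3.08, adjusted p = 0.056). The shares of all genes called under these settings are not given here, so these counts are not set against all genes. Within series 2, with 1 library of each genotype, the Acod1-/- library had the higher value for 8 of the 9 tested members, all but Tlr1, and for 49.8% of all genes tested. That pair allows no test. The summed CPM of 10 macrophage markers was 1534 in this Acod1-/- library and 1479 in the WT library, against 512 to 894 and 1922 to 4767 in series 1.

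**Figure D2:**
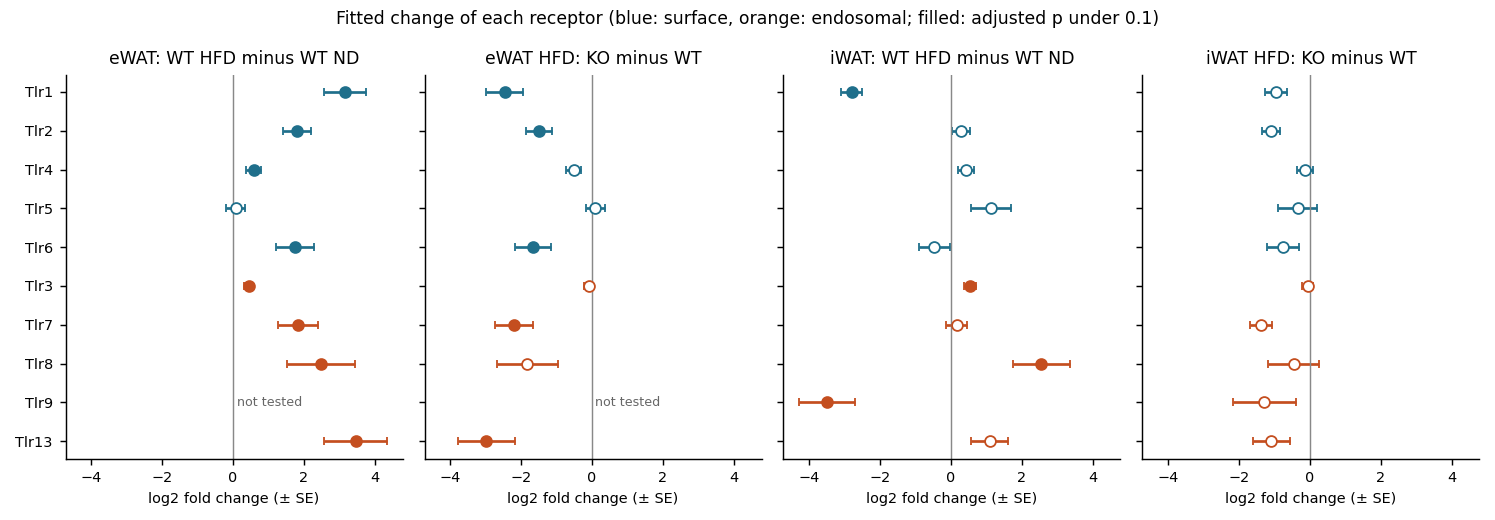
Fitted log2 fold changes (± SE, linear axis) of the 10 receptors for diet and for genotype under HFD in each depot, with filled points at an adjusted p under 0.1. In eWAT 8 receptors were higher on HFD and 5 lower in Acod1-/- mice, in iWAT Tlr1 and Tlr9 were lower on HFD, and no receptor was called for genotype in iWAT.

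HFD-fed Acod1-/- mice were also set against ND-fed WT mice in eWAT, which differ in diet and genotype together and share their libraries with both comparisons above. Of the 9 receptors only Tlr3 was called (log2 fold change 0.35, SE 0.13, adjusted p = 0.082), where 26.5% of all genes tested were called in either direction. That call was lost without ND library 2, 3 or 4 or Acod1-/- library 3 or 5 (adjusted p = 0.10 to 0.18). Tlr13 had a log2 fold change of 0.48 (SE 0.80, adjusted p = 0.69) and Tlr1 of 0.71 (SE 0.54, adjusted p = 0.37). These errors leave room for sizeable differences. Without Acod1-/- library 5 the value for Tlr13 was -1.10 (adjusted p = 0.17).

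In eWAT the macrophage markers moved with the receptors. Of the 10 listed, 9 were higher and 1 was lower on HFD (median log2 fold change 2.29), and 9 were lower in Acod1-/- mice (median -1.82). Of these, Adgre1, Cd68, Csf1r, Lyz2 and Mrc1 are also named by the study from these samples, so their direction is not independent evidence. Their summed CPM was 578 to 976 on ND, 1479 to 4767 in WT mice and 512 to 1534 in Acod1-/- mice on HFD, and none was at 0. Adgre1, which encodes the macrophage protein F4/80, went from 28.1 ± 10.8 CPM on ND (n = 4) to 205 ± 132 on HFD (n = 5) and 36.8 ± 35.7 in Acod1-/- mice (n = 5). The 5 neutrophil genes summed to 2.20 to 6.16 CPM on ND, 30.1 to 55.9 in WT mice and 3.96 to 42.03 in Acod1-/- mice on HFD, with Ly6g at 3 counts or fewer in every library. Both that were tested, S100a8 and Csf3r, were higher on HFD (log2 fold changes 4.05 and 1.59, adjusted p = 0.0011 and 0.0076), and Csf3r was lower in Acod1-/- mice (-1.06, adjusted p = 0.077). Of 7 dendritic cell genes 6 were tested, with 1 higher and 1 lower on HFD and 1 lower in Acod1-/- mice. Itgax, which macrophages of fat also express, was the gene higher on HFD and lower in Acod1-/- mice (3.30 and -2.58, adjusted p = 0.0044 and 0.028). The 7 genes summed to 35.9 to 80.2, 100.3 to 255 and 32.5 to 85.6 CPM. Itgax made up much of this in WT mice on HFD, with a mean of 121 CPM beside 149 CPM for the sum. All 5 fibroblast markers were higher on HFD with 4 of them lower in Acod1-/- mice. Of 5 T cell markers 3 were higher on HFD and 2 lower in Acod1-/- mice, at sums of at most 19.6 CPM. Their part in the differences of the receptors was not tested.

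Relative to the macrophage markers the receptors divided. Per 1000 summed macrophage CPM, Tlr13 had medians of 6.19 on ND, 11.7 in WT mice on HFD and 3.60 in Acod1-/- mice, and the HFD libraries of WT mice (11.4 to 24.4) lay above all ND libraries (5.01 to 7.87). The Acod1-/- libraries ran from 2.17 to 15.5 and so overlapped the WT libraries on HFD. Tlr1 was likewise higher in WT mice on HFD (5.05 to 10.1) than on ND (2.24 to 4.40). Tlr2, Tlr6, Tlr7 and Tlr8 overlapped between the diets on this scale. Tlr3 had medians of 20.6 on ND and 5.38 on HFD, Tlr4 of 23.5 and 8.41 and Tlr5 of 8.07 and 2.14, and none of them overlapped between the diets. The CPM of Tlr5 was level at 6.13 and 6.44, and a receptor with level CPM falls on this scale when the macrophage sum rises. The ratios are a description with no test.

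In iWAT of WT mice the diet comparison gave another pattern. Of the 10 receptors, 2 were lower on HFD, Tlr1 and Tlr9, where 24.2% of all 14801 genes tested were lower, and 2 were higher, Tlr3 and Tlr8, where 25.9% were higher. These shares are near those of all genes. Tlr1 was at 30.8, 42 and 30.4 CPM on ND and at 6.82, 2.71, 3.14, 6.35 and 5.12 CPM on HFD. The groups were far apart, with a log2 fold change of -2.80 (SE 0.29, adjusted p = 0.00010), opposite to eWAT. Tlr9, which senses unmethylated CpG DNA, was at 9.28, 9.15 and 4.44 CPM on ND and at 0.326, 0.153, 0.937, 1.26 and 0.622 CPM on HFD. It was 11.6 times as high on ND by the means (log2 fold change -3.49, SE 0.80, adjusted p = 0.0055).

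Tlr8 was at 0.823, 0.195 and 0.637 CPM on ND, or 10 to 35 counts, and at 4.16, 1.43, 3.57, 5.24 and 1.45 CPM on HFD (log2 fold change 2.55, SE 0.81, adjusted p = 0.026). Tlr3 went from 16.0 ± 3.32 CPM (n = 3) to 22.6 ± 1.36 CPM (n = 5) with a log2 fold change of 0.53 (SE 0.17, adjusted p = 0.025), and leaving out ND library 3 ended the call (adjusted p = 0.12). Both pairs of groups were apart. Tlr13 at 3.24 and 6.79 CPM (log2 fold change 1.10, SE 0.52, adjusted p = 0.11) and Tlr5 at 3.27 and 7.05 CPM (log2 fold change 1.14, SE 0.57, adjusted p = 0.13) did not pass, and nor did Tlr2, Tlr4, Tlr6 and Tlr7, with log2 fold changes between -0.46 and 0.43. DESeq2's Wald test called Tlr5 and Tlr13 higher (adjusted p = 0.077 and 0.072), for 6 members in all, and its share of all genes called is not given here. Tlr5 was also called without Acod1-/- library 2 or 3 (adjusted p = 0.020 and 0.072), Tlr4 without Acod1-/- library 2 (adjusted p = 0.081), and Tlr13 without WT HFD library 3 or 5 (adjusted p = 0.086 and 0.053). When the fit held a term for the series, Tlr5 was called and Tlr9 was not called (log2 fold changes 1.87 and -2.45, adjusted p = 0.091 and 0.18). Within series 2 the HFD library had 5.12 CPM of Tlr1 and 0.622 CPM of Tlr9, both below all 3 ND libraries.

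Between the diets, lymphoid markers moved with Tlr1 and Tlr9 in iWAT. All 5 B cell markers, all 5 T cell markers and all 5 lymph node markers were lower on HFD. The B cell genes summed to 523, 801 and 657 CPM in the ND libraries, 3.57 to 82.6 CPM in WT mice and 1.29 to 5.99 CPM in Acod1-/- mice on HFD. The 82.6 CPM was that of WT HFD library 5. Its Tlr9 (0.622 CPM) and Tlr1 (5.12 CPM) lay inside the range of the other WT libraries on HFD. The T cell genes summed to 200 to 325 CPM on ND and at most 53.8 CPM on HFD, and the lymph node genes, among them Cxcl13 and Ccl21a, to 237 to 397 CPM on ND and at most 20.97 CPM on HFD. Of these markers only Ccl19 and Glycam1, in the Acod1-/- group on HFD, were at 3 counts or fewer in a whole group in iWAT. The macrophage markers went the other way, with 8 of 10 higher on HFD and none lower (median log2 fold change 1.33), and their sums were 516 to 640 CPM on ND, 586 to 1454 CPM in WT mice on HFD and 379 to 553 CPM in Acod1-/- mice.

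Per 1000 summed macrophage CPM, Tlr1 was at 58.7 to 65.6 in iWAT on ND and at no more than 10.1 in any library of the other groups. Of 7 dendritic cell markers 4 were lower on HFD and none higher. Tlr11 and Tlr12, receptors of a protozoan profilin that are not among the 10, were also lower in iWAT on HFD (log2 fold changes -2.48 and -2.94, adjusted p = 0.0060 and 0.0022). Skeletal muscle genes were uneven among the ND libraries of iWAT, with sums of 4.06 to 5729 CPM. The part of any of these cell types in the values of Tlr1 and Tlr9 was not tested.

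**Figure D3:**
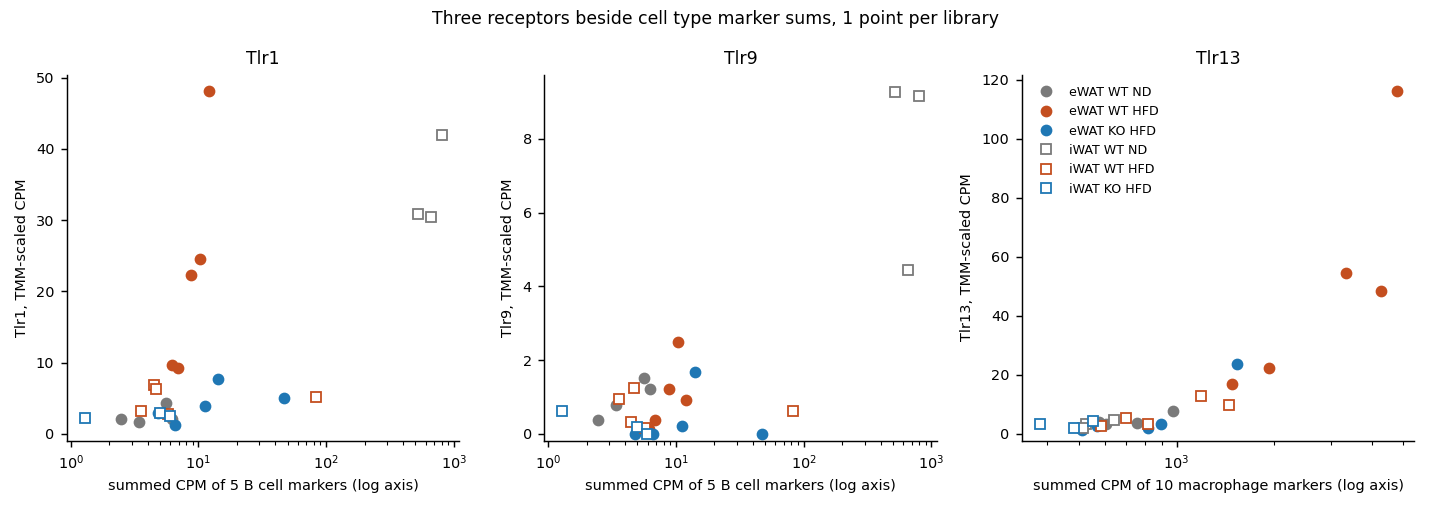
Tlr1, Tlr9 and Tlr13 (TMM-scaled CPM, linear axis) in each of the 25 libraries against the summed CPM of B cell or macrophage markers (log axis), with filled circles for eWAT and open squares for iWAT. The 3 iWAT libraries on ND had 523 to 801 CPM of B cell markers and the highest Tlr9, and Tlr13 was highest, at 116 CPM, in the library with the highest macrophage sum, 4767 CPM.

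For genotype in iWAT no receptor passed, and no gene did (0% of 14801 genes tested, smallest adjusted p = 0.11 in edgeR, with 2468 genes at an unadjusted p under 0.05). All 10 receptors had a negative log2 fold change. Tlr7 was at 3.82, 2.82 and 4.45 CPM in Acod1-/- mice, below all 5 WT libraries at 5.86 to 14.2 CPM (log2 fold change -1.37, SE 0.31, adjusted p = 0.14). Tlr2 was at 3.12, 2.34 and 3.19 CPM, below the WT libraries at 4.54 to 8.49 CPM (log2 fold change -1.08, SE 0.26, adjusted p = 0.14). Tlr1 at 2.54 ± 0.389 against 4.83 ± 1.85 CPM overlapped (log2 fold change -0.95, SE 0.31, adjusted p = 0.17). DESeq2's Wald test called these 3 lower, with adjusted p of 0.0032, 0.0085 and 0.068. The share of all genes that DESeq2 called is not given here, so these calls are not set against all genes. Without Acod1-/- library 3, the only one of its group in series 2, edgeR called Tlr7 and Tlr2 (adjusted p = 0.038 and 0.045), and it did so without WT HFD library 5, also of series 2 (adjusted p = 0.071 and 0.098). The macrophage list had 9 of 10 genes with a negative log2 fold change and none called (median -1.11).

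HFD-fed Acod1-/- mice and ND-fed WT mice in iWAT shared their libraries with both comparisons. Of the 10 receptors 5 were lower in the former, where 16.1% of all genes tested were lower. They were Tlr1 (log2 fold change -3.75, adjusted p = 9.6e-05), Tlr9 (-4.78, adjusted p = 0.0072), Tlr7 (-1.21, adjusted p = 0.022), Tlr2 (-0.81, adjusted p = 0.055) and Tlr6 (-1.22, adjusted p = 0.094). Tlr3 (0.47, adjusted p = 0.082) and Tlr8 (2.10, adjusted p = 0.089) were higher, where 18.5% of genes were. All 5 B cell, all 5 T cell and all 5 lymph node markers were lower in the same comparison (median log2 fold changes -7.71, -5.25 and -8.87), and their part was not tested. The count of 7 went to 3 without ND library 3 and to 4 without ND library 1, ND library 2, WT HFD library 3 or Acod1-/- library 3.

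The depots were compared within each condition in a fit of all 25 libraries. On ND, 2 receptors were lower in eWAT than in iWAT, Tlr1 (log2 difference -3.75, SE 0.55, adjusted p = 4.1e-05) and Tlr9 (-2.96, SE 1.25, adjusted p = 0.088), where 14.2% of all 15034 genes tested were lower. The call for Tlr9 was lost when any ND library of either depot or WT HFD library 3 of iWAT was left out (adjusted p = 0.10 to 0.18). All 5 B cell, all 5 T cell and all 4 tested lymph node markers were also lower in eWAT on ND (medians -7.18, -5.27 and -7.57). In WT mice on HFD, 6 receptors were higher in eWAT, where 10.8% of genes were. Tlr13 differed most (2.93, SE 0.71, adjusted p = 0.0091), followed by Tlr8 (2.28, adjusted p = 0.070), Tlr1 (2.24, adjusted p = 0.0026), Tlr6 (1.73, adjusted p = 0.017), Tlr7 (1.58, adjusted p = 0.024) and Tlr2 (1.19, adjusted p = 0.015). The call for Tlr8 was lost without WT HFD library 1, 2 or 4 of eWAT or 2, 3 or 5 of iWAT (adjusted p = 0.11 to 0.19), and that for Tlr7 without WT HFD library 1 of eWAT (adjusted p = 0.11). Of the 10 macrophage markers 9 were higher in eWAT there (median 1.78). The part of these markers was not tested. In Acod1-/- mice on HFD no receptor differed between the depots at this threshold, where 3.81% of genes did in either direction, while Tlr2 had an unadjusted p of 0.047 and the 10 log2 differences lay between -0.23 and 1.01.

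The effect of diet itself differed between depots for 4 receptors, tested as an interaction, where 14.0% of all genes had a higher diet effect in eWAT. Tlr1 differed by 5.99 on the log2 scale (SE 0.71, adjusted p = 5.6e-06), which joins its rise in eWAT to its fall in iWAT. Tlr6 differed by 2.23 (SE 0.71, adjusted p = 0.029), Tlr2 by 1.55 (SE 0.48, adjusted p = 0.026) and Tlr7 by 1.70 (SE 0.69, adjusted p = 0.082). The call for Tlr7 was lost when any ND library, WT HFD library 1, 2 or 4 of eWAT or 2, 3 or 5 of iWAT was left out (adjusted p = 0.10 to 0.19). Tlr13 (2.39, SE 1.05) and Tlr9 (3.60, SE 1.60) missed the threshold with adjusted p of 0.11, and Tlr3 (-0.05, SE 0.20), Tlr4 (0.18, SE 0.33) and Tlr8 (-0.05, SE 1.15) were near 0. The effect of genotype differed between depots for no receptor and for 1 gene of 15034 (0.00665%), with log2 differences of -1.92 for Tlr13 (unadjusted p = 0.071) and -1.52 for Tlr1 (unadjusted p = 0.031).

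Summed per kilobase, the 5 surface receptors came to 7.05 ± 1.20 CPM per kb in eWAT on ND, 19.3 ± 8.11 in WT mice on HFD and 8.19 ± 3.21 in Acod1-/- mice. The 5 endosomal receptors came to 6.90 ± 1.47, 27.4 ± 16.6 and 7.91 ± 6.00 CPM per kb. Both sums were highest in WT mice on HFD by their means, and the endosomal share of the sum was 49.4% ± 3.58 on ND, 56.7% ± 4.62 in WT mice and 46.4% ± 6.47 in Acod1-/- mice on HFD. The endosomal members did not move alike. In the same order of groups, Tlr13 made up 7.66%, 23.4% and 6.72% of the sum and Tlr8 5.37%, 8.10% and 5.18%. Tlr7 made up 14.05%, 14.01% and 8.47%, Tlr3 20.3%, 10.6% and 25.6%, and Tlr9 2.01%, 0.607% and 0.380%. In Acod1-/- libraries 1 to 4 the share was 42.6% to 44.6%, below all WT libraries on HFD (52.0% to 63.2%), and in library 5 it was 57.8%. In iWAT the surface sum was highest on ND, at 16.2 ± 1.85 CPM per kb (n = 3), of which Tlr1 made up most, and the endosomal share was 33.7% ± 3.13, below all iWAT libraries on HFD (44.9% to 57.7%). Members are not replicates, so no test was made over them.

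**Figure D4:**
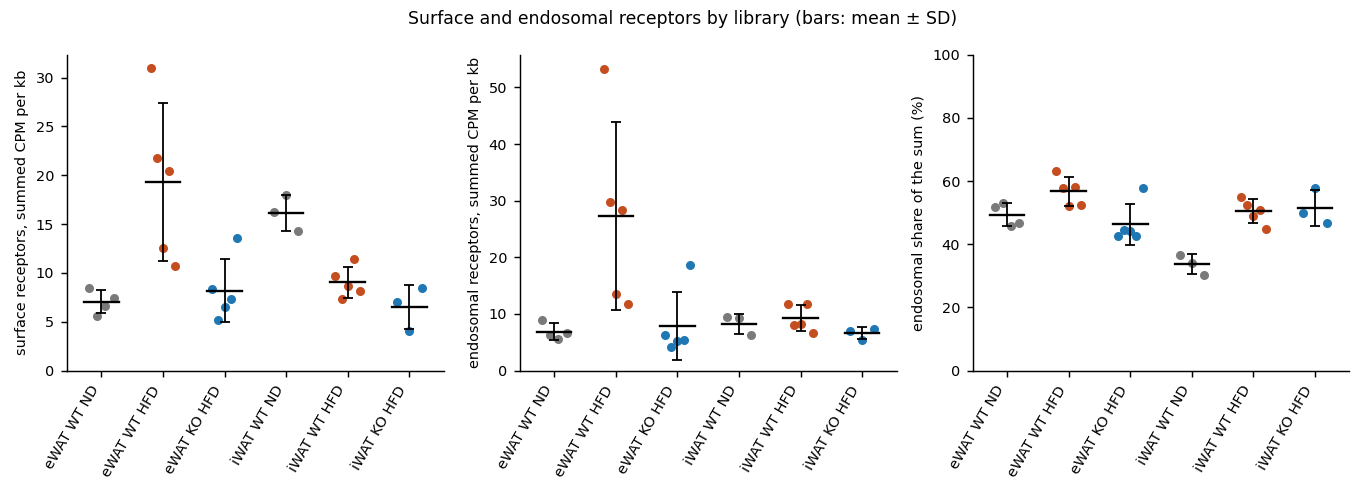
Summed CPM per kb of the 5 surface and the 5 endosomal receptors, and the endosomal share of both in percent, in each library by group (linear axes from 0, bars for the mean ± SD). Both sums had their highest mean in eWAT of HFD-fed WT mice. Their libraries there (surface 10.7 to 31.0, endosomal 11.8 to 53.2 CPM per kb) overlapped those of other groups. The endosomal share was lowest, at 30.4% to 36.6%, in iWAT on ND.

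The genes that guide and serve the receptors were followed in eWAT by list, beside 24.8% of all genes higher and 26.9% lower on HFD and 10.8% lower and 9.13% higher in Acod1-/- mice. Of 7 coreceptors and accessory proteins, 6 were higher on HFD and 4 lower in Acod1-/- mice. Ly86 (MD-1), the partner of the receptor homologue CD180, rose from 7.48 ± 0.952 to 47.3 ± 24.0 CPM and was at 13.3 ± 4.95 CPM in Acod1-/- mice (log2 fold changes 2.66 and -1.83, adjusted p = 0.00033 and 0.011). Cd14, which hands lipopolysaccharide to TLR4, changed by 1.59 and -1.62 (adjusted p = 0.0030 and 0.012), while Cd36, a lipid scavenger receptor at 5618 CPM on ND, was not called (log2 fold changes -0.13 and -0.01, adjusted p = 0.47 and 0.98).

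Of 8 genes for trafficking and processing, 6 were higher on HFD and 6 lower in Acod1-/- mice. Unc93b1, which carries the nucleic acid receptors to endosomes, went from 56.5 ± 10.99 to 167 ± 61.8 CPM and 62.6 ± 15.9 CPM in Acod1-/- mice (log2 fold changes 1.56 and -1.41, adjusted p = 0.00086 and 0.011). Lgmn, an asparagine endopeptidase that can cleave them there, changed by 2.54 and -2.20 (adjusted p = 0.0010 and 0.011). Hsp90b1, the chaperone gp96 needed for most of the family, was at 481, 476 and 403 CPM and passed in neither (log2 fold changes -0.01 and -0.24).

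Of 6 adaptors 5 were tested, and 5 were higher on HFD and 3 lower in Acod1-/- mice, by smaller steps in those named. Myd88, used by all members but Tlr3, went from 23.3 ± 1.95 to 30.5 ± 2.78 CPM and 22.6 ± 2.16 CPM (log2 fold changes 0.39 and -0.44, adjusted p = 0.0098 and 0.016). Ticam1 (TRIF), used by Tlr3 and Tlr4, changed by 0.58 and -0.66 (adjusted p = 0.050 and 0.056), and Tirap was higher on HFD (0.58, adjusted p = 0.015) and not called for genotype (-0.26, adjusted p = 0.31). The study names Myd88 and Ticam1, like Cd14, Cd180, Tril, Tnf, Ccl2 and Ccl5 among the other lists, from these same samples, so their direction is not independent evidence.

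Further down the pathway the directions were mixed and the shares of the kinases were near those of all genes. Of 16 kinases and ligases 4 were higher and 4 lower on HFD, and 1 was higher and 3 lower in Acod1-/- mice. Ikbke changed by 0.96 and -1.12 (adjusted p = 0.021 and 0.023), Tab3 by -0.63 and 0.65 (adjusted p = 0.015 and 0.030), while Irak1, the most abundant not called for genotype, had values of -0.04 and 0.26 (adjusted p = 0.86 and 0.32). Of 7 transcription factors 3 were higher and 1 lower on HFD and 2 were lower in Acod1-/- mice, namely Irf5 (1.74 and -1.60, adjusted p = 0.0016 and 0.011) and Rel (1.07 and -0.89, adjusted p = 0.021 and 0.079). Rela was at 56.4, 58.0 and 51.7 CPM. Of 7 negative regulators 2 were higher and 2 lower on HFD, and Tnip1 alone was lower in Acod1-/- mice (log2 fold change -0.59, adjusted p = 0.064). Nfkbia was lower on HFD (-0.62, adjusted p = 0.041).

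Of 13 target genes only 7 reached the filter, and 3 were higher on HFD and 3 lower in Acod1-/- mice. The chemokine Ccl2 was at 3.26 ± 2.24, 31.2 ± 14.0 and 10.4 ± 6.92 CPM (log2 fold changes 3.26 and -1.58, adjusted p = 0.0013 and 0.058), and Ccl5 changed by 1.80 and -1.21 (adjusted p = 0.0028 and 0.039). Nos2 was at 6.17, 5.07 and 5.22 CPM. Ifnb1 had at most 3 counts in every library. In iWAT the same lists gave no call for genotype. For diet, beside 25.9% of all genes higher and 24.2% lower, 4 coreceptors were higher and 2 lower, 3 trafficking genes higher and 2 lower, and 6 of the 7 transcription factors lower, in the comparison in which the lymphoid markers were lower too.

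**Figure D5:**
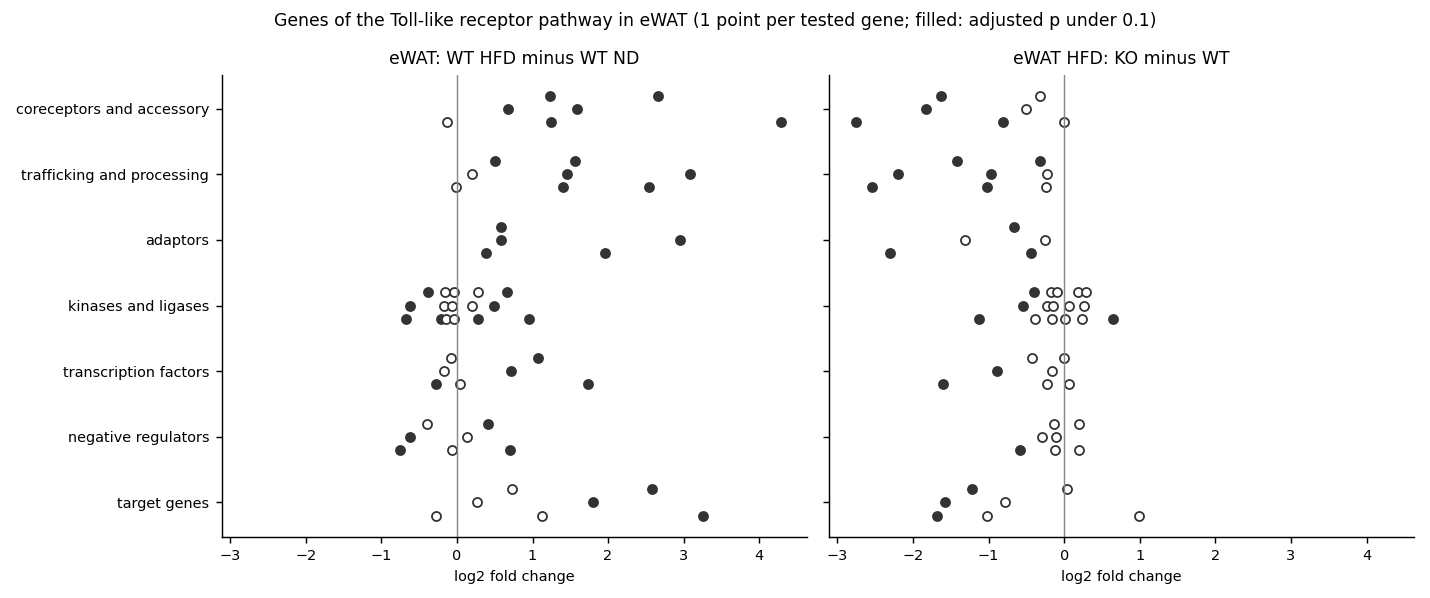
Fitted log2 fold changes (linear axis) of the tested genes of 7 pathway lists in eWAT for diet and for genotype under HFD, 1 point per gene and filled at an adjusted p under 0.1. Coreceptors, trafficking genes and adaptors lay mostly above 0 for diet and below 0 for genotype, while kinases lay on both sides.

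Likeness among the receptors was described by Pearson's r of log2 CPM, centred within each depot, over the 25 libraries, which share depot, group and depth, and over 14122 genes. Tlr2 and Tlr7 had r = 0.90 with each other, Tlr7 and Tlr13 0.89, Tlr6 and Tlr7 0.87 and Tlr6 and Tlr13 0.86. Tlr5 had r between -0.17 and 0.59 with the other members and Tlr3 between -0.03 and 0.63. Among all genes, Tlr13 was most like Cd200r4, Slc11a1 and Tnfrsf11a (r = 0.96 each), Tlr1 most like Vav1, Cd53 and Cd72 (0.98, 0.97 and 0.97), and Tlr2 most like Scpep1, Lyz2 and Hexa (0.95, 0.94 and 0.92). Tlr6 was most like Mpeg1, Nckap1l and Taok3 (0.94, 0.93 and 0.93), Tlr7 most like Tnfrsf1b and Nceh1 (0.95 and 0.94), and Tlr8 most like Atp6v1a, Entpd1 and Atp6v0c (0.93, 0.91 and 0.91). Tlr4 was most like Vwa5a, Abca9 and Peak1 (0.91, 0.89 and 0.88), Tlr3 most like Cyp2c23, C1qtnf7 and Fam114a1 (0.89, 0.87 and 0.87), and Tlr5 most like Nek9, Cgnl1 and Cux2 (0.86, 0.85 and 0.83). Tlr9 was below 1 CPM in eWAT and was left out.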

How the data were processed

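Per library the authors deposited counts of reads per gene, classes of uncounted reads (8.48% to 13.4% of reads here, left out), cDNA lengths and FPKM values that were not used. They prepared directional mRNA libraries, trimmed with cutadapt and aligned with STAR to GRCm38 (mm10). The processing notes also name bedtools. The counting program and its strand setting are not given in the sources used here. Of 54752 gene IDs, 54723 had a symbol in GENCODE vM21.

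The main test was edgeR's quasi-likelihood test (version 4.0.16, R 4.3.3) after TMM normalization, with DESeq2 1.42.0 as an alternative and Python 3.11.15 for the levels. Each depot was fitted with its 3 groups on genes averaging 1 CPM or more in that depot. Depots and interactions were fitted with 6 groups on genes averaging 1 CPM or more over all 25 libraries. P-values were adjusted over all genes tested (Benjamini-Hochberg) and called under 0.1. Levels are CPM scaled by TMM over all libraries. Log2 CPM used a prior count of 2. The fits were tested on simulated data. No pair of libraries within a group were copies. The sources used here do not say whether the eWAT and iWAT libraries of 1 number come from 1 mouse, and they were fitted as separate mice. Members, gene lists and tests were chosen with earlier results of these data known. Genes were named by rule: all members with Tlr11 and Tlr12, per pathway list the 2 with the smallest adjusted p for eWAT genotype among those called for diet and genotype and the most abundant not called for genotype, Acod1, Adgre1 and Cd68, and the 3 genes most like each member. A gene that this rule names is not reported here. Named after their values were seen were Ifnb1, Cxcl13, Ccl21a, Ccl19, Glycam1, Ly6g, S100a8, Csf3r, Itgax, Csf1r, Mrc1, Cd180, Tril and Tnf. Cd68 went from 22.6 to 334 CPM with diet in eWAT and was at 51.5 CPM in Acod1-/- mice. Alternatives were no filter, 1 CPM in every library, DESeq2 size factors, a threshold of 0.05, the Wald test of DESeq2, a replicate block, each library left out, the library series as a term, only the groups compared, and HFD libraries of series 1.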

Additional observations from a re-analysis of the deposited data

Results flagged for a closer look

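In the eWAT of Acod1-/- mice, library 5 stood apart by Dixon's test from the other 4 for Tlr13 (23.8 CPM against 1.11 to 3.22), Tlr8 (16.5 against 0.601 to 2.30), Tlr9 (1.68 against 0 to 0.200) and Tlr3 (23.3 against 17.0 to 18.6). It is the only eWAT library of its genotype in library series 2, and its macrophage marker sum was 1534 CPM against 512 to 894 in the others. The part of either was not tested. ND library 1 of eWAT stood apart for Tlr1 (4.29 CPM against 1.69 to 2.13), and in iWAT of HFD-fed WT mice library 4 did for Tlr4 (25.4 against 17.9 to 19.6) and library 3 for Tlr5 (9.98 against 5.86 to 6.82). Chance flags about 1 in 20 groups, and 7 were flagged of the 40 tested, which share libraries.

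The effect of diet differed between depots, by the interaction term in edgeR's quasi-likelihood test, for Tlr1 (5.99 on the log2 scale, adjusted p = 5.6e-06), Tlr6 (2.23, adjusted p = 0.029), Tlr7 (1.70, adjusted p = 0.082) and Tlr2 (1.55, adjusted p = 0.026). For Tlr1 the effects were opposite, with all 5 HFD libraries above all ND libraries in eWAT and all 5 below them in iWAT. Its ND libraries in iWAT were also those with the high B cell, T cell and lymph node markers.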

How the results depend on the processing

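Of 479 values of single members under settings other than leaving out a library, 423 kept their direction and side of the threshold, 32 lost and 18 gained a call and 6 reversed, none of them called. The cause of these changes was not tested, except that a stricter filter tests fewer genes. For iWAT knockout on HFD against ND, the depots and the interactions, only members called in the main fit entered. Gains and sign changes of other members there are not given, here or for libraries left out. Shares of all genes called are given for the main fits only, so counts of members under other settings have no share beside them. DESeq2's Wald test called 6 members for diet by depot, and 1 higher and 2 lower for depot on ND. Requiring 1 CPM in every library left 5 members called for eWAT diet, 3 for eWAT genotype, 2 for iWAT diet, 1 for iWAT genotype, 3 for iWAT knockout on HFD against ND, 1 for depot on ND and 3 for depot in WT mice on HFD. In the eWAT comparison of knockout on HFD with ND, the single call was lost (0 members) with no filter, the replicate block, only the groups compared or an adjusted p under 0.05. In iWAT the same comparison gave 4 members with no filter and 3 with the series as a term, with only the groups compared or at an adjusted p under 0.05. For iWAT genotype DESeq2's Wald test called 3 and series 1 alone 2. Depot on ND gave 1 with no filter and 1 at an adjusted p under 0.05.

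Within depots the correlations of the deviations of same-numbered libraries ran from -0.34 to 0.35, and 8 of 22 were most like their own number. Among these were libraries 1, 3, 4 and 5 of eWAT on HFD, between WT and Acod1-/- mice (r = 0.15 to 0.25). These values do not settle whether the numbers pair libraries within a depot. Between depots these correlations ran from -0.14 to 0.56 and 8 of 11 were most like their own number, which is a hint from the data that some numbers may mark 1 mouse. The replicate block joined all libraries of 1 number, also over diets and genotypes, which are different mice. It therefore did not model the depots of 1 mouse, and such a pairing was not tested. With the replicate block, 8 members were called for eWAT diet, 6 for eWAT genotype, 4 for iWAT diet (Tlr13 gained, adjusted p = 0.086, and Tlr3 lost, 0.11), 2, 6 and 0 for the depots on ND, in WT and in Acod1-/- mice on HFD, and 5 for diet by depot. For iWAT diet, 6 were called by DESeq2's Wald test, and 6 when fitting the compared groups alone. Reversed under the block were Tlr5 for eWAT diet (-0.0030) and, for knockout on HFD against ND in eWAT, Tlr6 (-0.25), Tlr8 (-0.74) and Tlr13 (-0.58). Tlr7 reversed there with the series as a term (0.016), and Tlr5 for eWAT genotype in series 1 alone (-0.0016).

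Leaving out each library in turn, the members called ranged from 6 to 8 for eWAT diet, 4 to 7 for eWAT genotype, 3 to 6 for iWAT diet, 0 to 2 for iWAT genotype, 0 to 1 and 3 to 6 for knockout on HFD against ND in eWAT and iWAT, 1 to 3, 4 to 6 and 0 for the depots on ND, in WT and in Acod1-/- mice on HFD, 3 to 6 for diet by depot and 0 to 1 for genotype by depot. Values of members that changed sign, none of them called, ranged for Tlr5 from -0.013 to 0.18 (eWAT diet) and -0.077 to 0.28 (eWAT genotype), for eWAT knockout on HFD against ND from -0.046 to 0.46 (Tlr2), -0.10 to 0.17 (Tlr4), -0.0069 to 0.35 (Tlr5), -0.54 to 0.35 (Tlr6), -1.10 to 0.95 (Tlr8) and -1.10 to 0.79 (Tlr13), for iWAT diet from -0.025 to 0.29 (Tlr7), and for iWAT genotype from -0.34 to 0.11 (Tlr4), -1.20 to 0.16 (Tlr5), -0.15 to 0.11 (Tlr3) and -1.13 to 0.075 (Tlr8). The levels and sums moved by less than 1 SD under DESeq2 size factors and raw library totals. The 276 values checked also held the ratios to macrophage markers and the endosomal share. In these the scaling of a library cancels, so they could not move. Receptors at a few counts, such as Tlr9 in eWAT, are limited by depth.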
